A study of Homo sapiens and Mus musculus with 92 samples.

Results

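Of the 28103 gene symbols counted by RNA-seq in HEL cells, 10 encode surface antigens by which blood progenitors and leukemia cells are recognised: CD24, CD33, CD34, CD36, CD38, CD44, CD47, CD99, KIT and FLT3. The members were chosen by gene symbol, and all 10 were found in both count tables. CD24 was included because its mRNA changed in opposite directions in the knockdowns described here. Its changes are therefore given as a description, without a test, and the other 9 members were tested.

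HEL is a human erythroleukemic cell line that carries no rearrangement of the MLL1 gene, and the sample labels call its cells erythroblasts. In the MLL1 experiment, 3 libraries of control cells (genotype label WT) were compared with 3 libraries of MLL1 knockdown (KD) cells. In the AF9 experiment, 2 libraries of control cells (genotype label WT) were compared with 2 libraries of AF9 KD cells, and each experiment had its own controls. The methods describe HEL cells transduced with lentivirus expressing an shRNA and selected with puromycin, with a control shRNA in the controls. Each KD was made with a single shRNA (shRNA #1), and the cells are transduced populations, not clones. The count tables differ in depth, with 6966345 to 10380241 counted reads per library in the MLL1 experiment and 12278989 to 14232408 in the AF9 experiment. The tables were normalized separately, except in the joint fit used for the difference between the knockdowns. Levels were tested only within each table, and where levels of both stand side by side they are a description.

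MLL1 (gene KMT2A) is a histone H3 lysine 4 methyltransferase, and AF9 (gene MLLT3) is a subunit of complexes that act on transcription by RNA polymerase II and one of the proteins to which MLL1 is fused in leukemia. Surface antigens are used to place a blood cell on the path from stem cell to mature cell. CD34 and KIT mark stem and progenitor cells and are lost during maturation, CD38 is gained as progenitors commit, and CD33 marks the myeloid branch. KIT and FLT3 are receptor tyrosine kinases for stem cell factor and FLT3 ligand. CD44 binds hyaluronan, CD36 is a scavenger receptor for fatty acids and thrombospondin, and CD99 is an adhesion glycoprotein. CD47 and CD24 are ligands of the inhibitory macrophage receptors SIRPA and SIGLEC10, respectively.

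The targeted genes were lower in their own KD libraries. KMT2A was measured at 1320, 1304 and 1256 CPM in the controls, replicates 1, 2 and 3, and at 816, 814 and 833 CPM in MLL1 KD cells. CPM are counts relative to the library size, scaled with TMM factors. MLLT3 was measured at 548 and 528 CPM in control cells and at 107 and 92.6 CPM in AF9 KD cells. Neither target's groups overlapped.

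The guide strands of the shRNAs are shown here because every KD library rests on one or the other. Each is the reverse complement of the target sequence, and the capitals mark the seed, bases 2 to 8 from the 5′ end.
MLL1 shRNA #1: aAGTGGAAtgtttaacagtgc
AF9 shRNA #1: aTTAATTTgtgaggctttgaa
Sites complementary to all 7 seed bases were counted in the 3′ UTR of each member's canonical GENCODE transcript. The MLL1 guide had 1 such site in CD34, 1 in CD38, 2 in CD44 and none in the other 7 members, and 15% of 11922 tested genes had at least 1. The AF9 guide had 1 site in CD24, 1 in CD34, 1 in CD38, 3 in CD47 and none in the other 6 members, and 29% of 11631 tested genes had at least 1. A match is only a stretch of letters, and its part in the changes described here was not tested.

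CD24, CD34 and CD44 had fold changes of at least 1.5 in both experiments, with opposite signs, and their promoters are shown for comparison. The 3 genes were picked by these fold changes. In MLL1 KD cells those of CD34 and CD44 had adjusted p values of 0.51 and 0.30 by edgeR. Each runs from 250 bases before the start of the canonical transcript to 50 bases after it, 5′ to 3′ on the gene's strand, with CpG dinucleotides in capitals. Those of CD34 and CD44 are RefSeq promoters on GRCh38.p14. That of CD24 was read from the hg38 genome, because the nearest of its 3 RefSeq starts lay 690 bases away.
CD24 promoter, chr6:106974680-106974979, minus strand: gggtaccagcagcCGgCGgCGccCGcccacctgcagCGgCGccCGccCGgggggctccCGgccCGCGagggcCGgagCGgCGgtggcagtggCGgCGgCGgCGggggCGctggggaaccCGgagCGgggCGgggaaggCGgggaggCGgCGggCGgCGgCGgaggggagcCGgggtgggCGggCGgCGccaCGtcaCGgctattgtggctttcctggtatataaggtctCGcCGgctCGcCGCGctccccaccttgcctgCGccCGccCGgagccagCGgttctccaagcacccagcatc
CD34 promoter, chr1:207911076-207911375, minus strand: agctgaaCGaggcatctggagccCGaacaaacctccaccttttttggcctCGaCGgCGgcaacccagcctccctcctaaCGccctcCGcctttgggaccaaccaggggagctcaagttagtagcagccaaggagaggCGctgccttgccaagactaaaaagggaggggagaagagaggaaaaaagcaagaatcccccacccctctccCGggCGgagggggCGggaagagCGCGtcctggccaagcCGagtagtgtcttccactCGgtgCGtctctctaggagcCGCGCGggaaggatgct
CD44 promoter, chr11:35138921-35139220, plus strand: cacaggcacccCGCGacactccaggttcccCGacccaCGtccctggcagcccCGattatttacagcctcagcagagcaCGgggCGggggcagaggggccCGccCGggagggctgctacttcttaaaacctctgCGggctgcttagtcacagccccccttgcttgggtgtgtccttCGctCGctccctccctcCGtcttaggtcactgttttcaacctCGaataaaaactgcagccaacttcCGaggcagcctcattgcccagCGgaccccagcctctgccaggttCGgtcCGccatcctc
The CD24 promoter holds 43 CpG dinucleotides, and 4.98% of 35116 RefSeq promoters of the same length hold at least as many. The CD34 and CD44 promoters hold 19 and 18, near the median of 14 over all promoters. The GC box GGGCGG, searched on both strands and itself containing a CpG, occurs 7 times in the CD24 promoter, 2 times in the CD34 promoter and 2 times in the CD44 promoter, and in 45% of all promoters. The core of the ETS site, CGGAAG, occurs 1 time in the CD44 promoter and not in the other two, and in 19.5% of all promoters. The GATA core GATAA was absent from all 10 members' promoters and present in 22.7% of all promoters. These searches describe letters and say nothing about binding.

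Measured per length, the members spanned a wide range of levels in HEL cells. Levels in TPM, which divide the count by the merged exon length and scale each library to the same sum, are given as the mean ± SD. In control cells of the MLL1 experiment (n = 3), CD47 stood highest at 90.5 ± 6.77 TPM, followed by CD33 at 73.8 ± 11.3 TPM. The libraries of these neighbours overlapped. CD99 at 51.4 ± 7.11 TPM, CD36 at 45.7 ± 6.26 TPM and CD44 at 39.5 ± 13 TPM formed a middle group whose neighbours overlapped as well. KIT at 23.9 ± 5.48 TPM and CD24 at 21.8 ± 1.76 TPM could not be ordered, and CD34 was measured at 2.15 ± 1.96 TPM. CD38 had 0 to 2 reads and FLT3 had 0 reads in each control library, and 0 reads allow up to 3 reads by counting error. The order depends on the length used. With the length of the canonical transcript, CD33 stood highest in the same cells with a mean of 187 TPM, before CD99 with 137 TPM and CD47 with 87.9 TPM.

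The order was different in control cells of the AF9 experiment (n = 2), although both experiments used HEL cells. KIT stood highest at 259.8 ± 73.1 TPM, above CD47 at 152 ± 10.5 TPM and CD36 at 122 ± 13.7 TPM, and no neighbours among these overlapped. CD24 at 84.1 ± 7.0 TPM and CD33 at 78.4 ± 3.77 TPM overlapped. CD44 followed at 40.5 ± 1.59 TPM, CD99 at 36.2 ± 2.02 TPM, CD34 at 3.23 ± 0.96 TPM, FLT3 at 0.60 TPM in both libraries and CD38 at 0.05 TPM or less. The levels of the experiments stand side by side here, and no test was made across them. With canonical transcript lengths, KIT (mean 302 TPM) was followed by CD33 (169 TPM), CD36 (152 TPM) and CD47 (125 TPM).

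**Figure D1:**
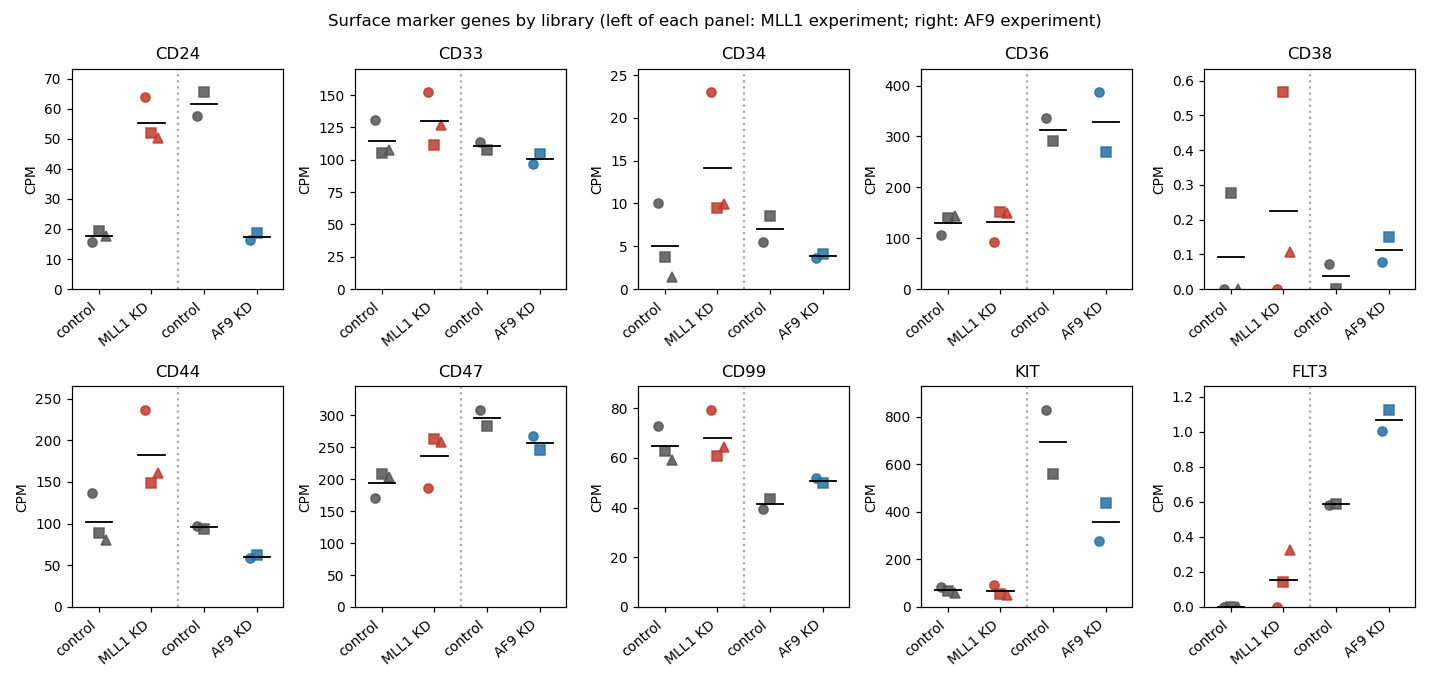
CPM of the 10 members in each of the 10 libraries, with the MLL1 experiment left and the AF9 experiment right of the dotted line. Circles, squares and triangles are replicates 1, 2 and 3, and bars are group means. CD24 is higher in all 3 MLL1 KD libraries (50.1 to 63.8 CPM) and lower in both AF9 KD libraries (16.3 and 18.5 CPM) than in the respective controls, and the CPM axes of CD38 and FLT3 end near 1 or below.

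CD24, a small glycolipid-anchored glycoprotein, lies on chromosome 6 (hg38, 106969831 to 106975627, minus strand). It was measured at 15.6, 19.5 and 17.7 CPM in control cells (replicates 1, 2 and 3) and at 63.8, 51.9 and 50.1 CPM in MLL1 KD replicates 1, 2 and 3. Every MLL1 KD library lay above every control library, and the fitted log2 fold change was 1.65 ± 0.17 (SE). In the AF9 experiment it was measured at 57.5 and 65.5 CPM in control cells and at 16.3 and 18.5 CPM in AF9 KD cells. Both AF9 KD libraries lay below both controls, with a log2 fold change of -1.82 ± 0.13 (SE). These are the values for which CD24 was chosen. Cut into stretches of 31 bases, 14.7% of its transcript is also found in transcripts of other genes, most often in the pseudogene CD24P4 with 7.29%, so the assignment of those reads is uncertain. The same holds for 10.1% of the CD33 transcript.

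The other 9 members were examined in MLL1 KD cells first. A gene was called when its fold change was at least 1.5 and its FDR-adjusted p value, by edgeR's quasi-likelihood test over all 14408 genes tested, was under 0.05. Of the 9 members, 7 passed the filter on low values (a mean of at least 1 TPM) and 0 were called, against 0.0694% of all genes called. The targeted gene KMT2A, at 63.5% of its control level, was not called either, with an adjusted p value of 0.072 by edgeR. A missing call in this test therefore does not show that a gene was unchanged. By DESeq2, 0 of the 7 were called as well, against 1.48% of all genes. An unadjusted p value under 0.05 was found for 1437 genes. The median log2 fold change of the 7 was 0.19, and that of all tested genes was 0.01.

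Same-numbered control and KD libraries of this experiment deviated together from their group means, but the number set only replicate 1 apart. Replicates 2 and 3 correlated across groups as much with the other number (0.37 and 0.36) as with their own (0.33 and 0.35). They are therefore not shown to be paired. With the replicate number as a block, 2 of the 7 tested members were called, CD34 and CD44, both higher in MLL1 KD cells, against 4.73% of all genes called in either direction and 2.22% called higher. KMT2A was called lower with the block, with an adjusted p value of 2.5e-07 by edgeR. Replicate 1 stood apart from replicates 2 and 3 in both groups. With replicates 2 and 3 alone, a setting added after seeing the data, CD34 and CD44 were called. The share of all genes called there is not given, so this describes the setting and is no result about the members.

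CD34, a sialomucin of stem and progenitor cells, lies on chromosome 1 (207880972 to 207911402, minus strand). It was measured at 10.1, 3.75 and 1.40 CPM in control cells (replicates 1, 2 and 3) and at 23.0, 9.50 and 9.93 CPM in MLL1 KD replicates 1, 2 and 3. The groups overlapped, because control replicate 1 exceeded MLL1 KD replicates 2 and 3. Within each replicate number the KD library was higher, by 2.28-fold, 2.53-fold and 7.09-fold. The log2 fold change was 1.48 ± 0.65 (SE) with an adjusted p value of 0.51 by edgeR without the block, and 1.6 ± 0.26 with an adjusted p value of 3.4e-04 by edgeR with the block. The control values rest on few reads, 78, 27 and 11. Leaving out control replicate 1 moved the log2 fold change without the block to 2.47, and leaving out MLL1 KD replicate 1 moved it to 0.93.

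CD44, the hyaluronan receptor, lies on chromosome 11 (35138882 to 35232402, plus strand). Its level was 137, 89.1 and 80.2 CPM in control cells and 236, 148 and 161 CPM in MLL1 KD cells. All MLL1 KD libraries lay above all controls, and CD44 was the only 1 of the 7 tested members without overlap, against 17.7% of all genes. Within replicate numbers the folds were 1.73, 1.67 and 2.01. The log2 fold change was 0.83 ± 0.25 (SE) with an adjusted p value of 0.30 by edgeR without the block, and 0.84 ± 0.085 with an adjusted p value of 2.4e-06 by edgeR with the block.

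The remaining members showed smaller differences in MLL1 KD cells, and none of them reached a fold change of 1.5. CD47 was measured at 171, 208 and 204 CPM in control cells and at 186, 263 and 259 CPM in MLL1 KD cells. It was higher in the KD library of every replicate number, yet replicate 1 of the KD fell among the controls. Its log2 fold change was 0.28 ± 0.16 (SE), with an adjusted p value of 0.65 by edgeR without the block and 0.025 with it. CD33, an inhibitory lectin that binds sialic acid, was measured at 131, 106 and 107 CPM in control cells and at 152, 112 and 127 CPM in MLL1 KD cells. Its log2 fold change was 0.19 ± 0.16 (SE). CD99 had a log2 fold change of 0.07 ± 0.15 (SE) and lies in the pseudoautosomal region, so that its copies on the sex chromosomes cannot be told apart.

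KIT, on chromosome 4 (54657267 to 54740783, plus strand), was measured at 85.2, 69.1 and 56.8 CPM in control cells and at 92.1, 54.4 and 51.6 CPM in MLL1 KD cells. The groups overlapped, and the log2 fold change was -0.09 ± 0.26 (SE). CD36 was measured at 106, 139 and 144 CPM in control cells and at 92.4, 151 and 150 CPM in MLL1 KD cells, with a log2 fold change of 0.02 ± 0.22 (SE). Replicate 1 was lowest for CD36 and highest for KIT in both groups. CD38 had 0 to 4 reads and FLT3 0 to 3 reads in the MLL1 KD libraries, so differences in these genes were not detectable at this depth.

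**Figure D2:**
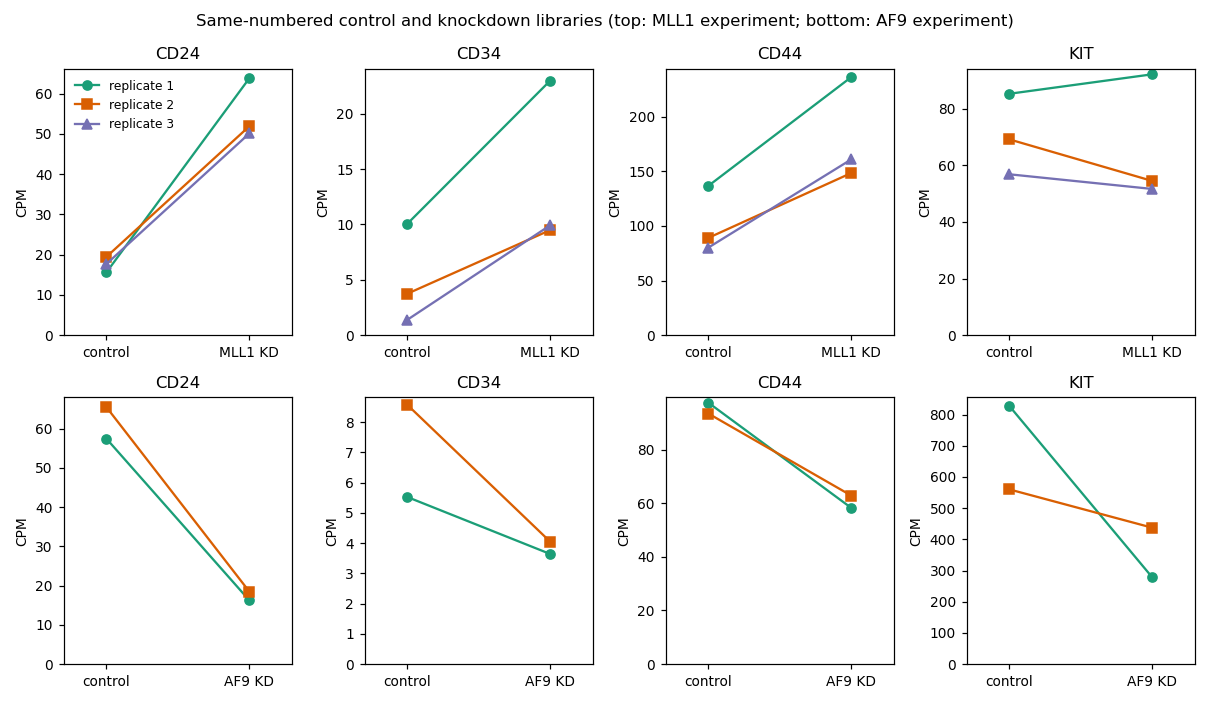
CPM of CD24, CD34, CD44 and KIT in same-numbered control and KD libraries, joined by lines, in the MLL1 experiment (top) and the AF9 experiment (bottom). All lines of CD24, CD34 and CD44 go up in the top row and down in the bottom row, and replicate 1 of the MLL1 experiment starts and ends above the others for CD34, CD44 and KIT.

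In AF9 KD cells, 3 of the 9 members were called among the 7 that passed the filter, all of them lower: CD34, CD44 and KIT. Over all 13349 genes tested, 13.1% were called, and 5.06% were called lower. By DESeq2 1 of the 7 was called, CD44, against 10.1% of all genes, and with the replicate block the 3 were called, against 14.7%. Counts of libraries that do not overlap say little with 2 against 2 libraries, since the groups did not overlap for 66% of all genes. Of the 7 members, 5 were lower and 1 higher in both AF9 KD libraries. The median log2 fold change of the 7 was -0.21, and that of all tested genes was 0.01.

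KIT, the stem cell factor receptor, was measured at 827 and 560 CPM in control cells and at 278 and 437 CPM in AF9 KD cells. The libraries of each group differed widely, but both KD libraries lay below both controls. The log2 fold change was -0.96 ± 0.19 (SE), with an adjusted p value of 0.0024 by edgeR. By DESeq2 on the same genes, the adjusted p value was 0.090 and KIT was not called.

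CD34 was measured at 5.52 and 8.57 CPM in control cells and at 3.64 and 4.04 CPM in AF9 KD cells. Both KD libraries lay below both controls. The log2 fold change was -0.86 ± 0.26 (SE), with an adjusted p value of 0.023 by edgeR. The call rested on control replicate 2, without which the adjusted p value was 0.32 and the log2 fold change -0.52, and DESeq2 on the same genes gave an adjusted p value of 0.074.

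CD44 fell from 97.4 and 93.4 CPM in control cells to 58.2 and 62.8 CPM in AF9 KD cells. The libraries within each group were close to each other. The log2 fold change was -0.66 ± 0.10 (SE), with an adjusted p value of 3.9e-04 by edgeR. With total counts in place of TMM factors the log2 fold change was -0.57, and with GC offsets it was -0.52, both short of a fold change of 1.5.

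CD99 was measured at 39.6 and 43.4 CPM in control cells and at 51.7 and 49.7 CPM in AF9 KD cells. It was the only 1 of the 7 tested members whose KD libraries both lay above the controls, but it missed the threshold, with a log2 fold change of 0.29 ± 0.11 (SE) and an adjusted p value of 0.064 by edgeR. CD47 was measured at 308 and 283 CPM in control cells and at 267 and 246 CPM in AF9 KD cells. Its log2 fold change was -0.21 ± 0.10 (SE), with an adjusted p value of 0.13 by edgeR, and it shrank to -0.02 with GC offsets. CD33 had a log2 fold change of -0.14 ± 0.10 (SE) and was measured at 114 and 108 CPM in control cells and at 96.4 and 104 CPM in AF9 KD cells.

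CD36 was measured at 336 and 290 CPM in control cells and at 387 and 269 CPM in AF9 KD cells. Its groups overlapped, and the log2 fold change was 0.07 ± 0.14 (SE). FLT3 had 8 and 7 reads in control cells and 13 and 15 reads in AF9 KD cells, and its level averaged over all 4 libraries was below 1 TPM, although the mean of the AF9 KD libraries was 1.17 TPM. In a fit without the filter its log2 fold change was 0.84 ± 0.53 (SE), with an adjusted p value of 0.29 by edgeR. CD38 had at most 2 reads in any library of the AF9 experiment. HEL cells of both experiments thus gave too few reads of CD38 for any comparison.

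**Figure D3:**
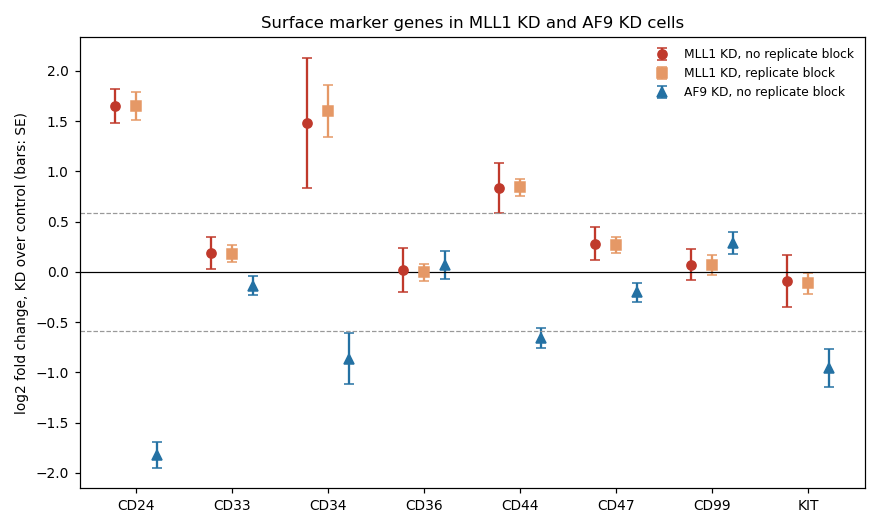
Log2 fold change of the 8 tested members in MLL1 KD cells without (circles) and with (squares) the replicate block and in AF9 KD cells (triangles), with bars for the SE and dashed lines at a fold change of 1.5. CD24, CD34 and CD44 lie above the upper line for MLL1 KD and below the lower line for AF9 KD. The SE of CD34 in MLL1 KD cells is 0.65 without the block and 0.26 with it.

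To ask whether the knockdowns differed in their effect on a member, all 10 libraries were normalized together in 1 fit. Within it, the log2 fold change in AF9 KD cells was subtracted from that in MLL1 KD cells. Each knockdown was made in 1 experiment only, so a difference between knockdowns cannot be told apart from one between experiments. Their control cells differed as well, with KIT at means of 23.9 TPM (MLL1 experiment) and 259.8 TPM (AF9 experiment). Of the 9 members, 7 were tested and 0 were called by edgeR, against 1.36% of 12749 genes, of which 2210 had an unadjusted p value under 0.05. By DESeq2, 1 was called, CD44, against 5.19% of all genes. With the replicate block, 3 were called, CD34, CD44 and KIT, against 15.3% of all genes.

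CD44 came closest in the fit without the block, with a difference of 1.51 ± 0.35 (SE) and an adjusted p value of 0.066 by edgeR. The value by edgeR with the block was 1.52 with an adjusted p value of 1.5e-06, and that by DESeq2 on the same genes was 1.51 with an adjusted p value of 0.0025. CD34 had a larger but less certain difference of 2.37 ± 0.90 (SE), with an adjusted p value of 0.21 by edgeR without the block and 2.9e-04 with it. KIT had a difference of 0.89 ± 0.42 (SE), with an adjusted p value of 0.32 by edgeR without the block and 0.014 with it. The differences of CD47 (0.50 ± 0.23), CD33 (0.35 ± 0.21), CD99 (-0.20 ± 0.21) and CD36 (-0.03 ± 0.34) did not pass.

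**Figure D4:**
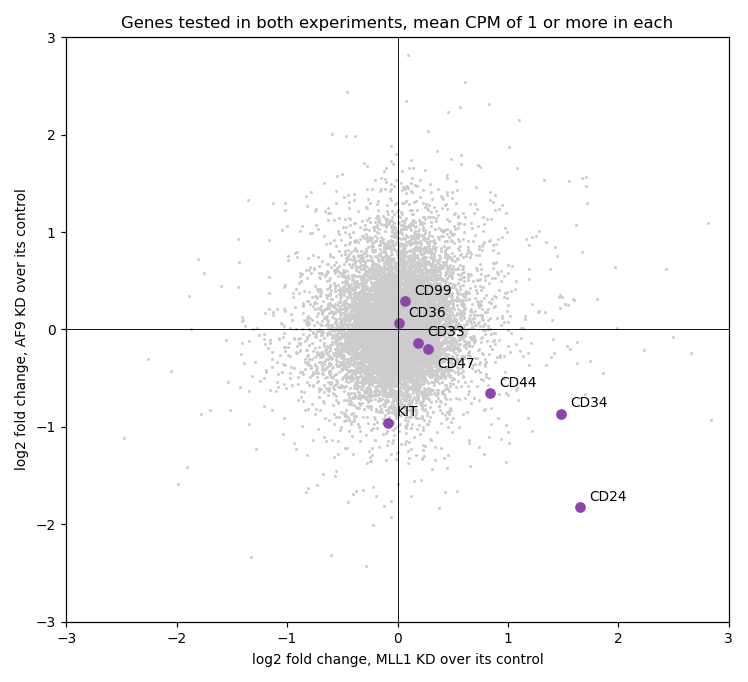
Log2 fold change in MLL1 KD cells (horizontal) against that in AF9 KD cells (vertical), with 11952 genes of at least 1 CPM in both experiments in gray and the 8 tested members in purple; 3 genes lie outside the axes. CD24, CD34 and CD44 lie in the lower right quadrant, and KIT lies near 0 on the horizontal axis.

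The pattern of CD24 was set beside that of the other genes as a description. Over the 10 libraries, each centred on the mean of its own table, CD44 had a Pearson correlation with CD24 of 0.83, CD34 of 0.67, CD47 of 0.57, CD33 of 0.54, KIT of 0.42, CD36 of -0.12 and CD99 of -0.25. Of the 12749 genes tested in both experiments, 77 (0.604%) had a fold change of at least 1.5 upward in MLL1 KD and downward in AF9 KD cells. CD24 itself, CD34 and CD44 are counted among these genes. Apart from CD24, the 5 of them most like it were TAF13 (0.94), EPSTI1 (0.92), MS4A6A (0.91), TMEM170B (0.91) and GPR141 (0.90). TAF13 encodes a subunit of the initiation factor TFIID, and MS4A6A and GPR141 encode membrane proteins. The log2 fold changes of TAF13 were 0.78 in MLL1 KD and -0.83 in AF9 KD cells, those of EPSTI1 were 0.79 and -1.28, and those of MS4A6A were 0.94 and -1.12. None of the 5 was called in MLL1 KD cells, with adjusted p values of 0.17 to 0.48 by edgeR without the block. In AF9 KD cells their adjusted p values by edgeR were 3.6e-05 to 0.020. The points share libraries, and the selection fixes the sign of these correlations.

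A list of 40 other surface antigens of blood progenitors and leukemia cells was examined beside the members. In MLL1 KD cells, 33 passed the filter and 1 was called, CD48, an adhesion and signalling molecule of the SLAM family, which rose from a mean of 4.93 to 19.6 CPM with a log2 fold change of 1.98 and an adjusted p value of 0.048 by edgeR. With the block, 3 were called higher (CD48, ADGRG1 and CD96) and 2 lower (ENG and CD276), names that were taken after their values were seen. Of all genes tested, 0.0694% were called without the block, and with it 2.22% were called higher and 2.51% lower. The list's median log2 fold change was 0.04.

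In AF9 KD cells, 29 of the 40 passed, 1 was called higher and 6 were called lower, with a list median of -0.15. Over all genes tested, 8.01% were called higher and 5.06% lower. The lower ones were CXCR4, the chemokine receptor that holds progenitors in the marrow (-1.59 on the log2 scale), IL1RAP, a coreceptor of interleukin 1 (-1.29), CD69, an early activation antigen (-0.97), CD52, a small glycolipid-anchored glycoprotein (-0.93), CD244, a SLAM family receptor of which CD48 is the ligand (-0.90), and ITGA2, an integrin subunit of the collagen receptor (-0.66). CD276, an immune checkpoint molecule, rose, with a log2 fold change of 1.3, but from a low mean of 1.24 to 3.0 CPM.

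The known ligands and receptors of the members varied widely in level in HEL cells. PECAM1 had means of 232 and 152 CPM in control cells of the MLL1 and AF9 experiments, respectively, and SELP had 132 and 33.6 CPM. Of 17 such genes, 8 passed the filter in each experiment. KITLG, the ligand of KIT, and SIRPA, the receptor of CD47, had mean levels under 0.05 CPM in every group. In MLL1 KD cells 0 were called, and with the block 2 were called higher, THBS1 among them, against 2.22% of all genes. THBS1 encodes thrombospondin 1, a ligand of CD36 and CD47, and its mean level was 30.7 CPM in control and 120 CPM in MLL1 KD cells. In AF9 KD cells THBS1 was called higher, with a log2 fold change of 0.64 and an adjusted p value of 0.0059 by edgeR, and no other gene of the list was called. Of all genes tested there, 13.1% were called, so 1 call among 8 is close to the general share. FLT3LG, the ligand of FLT3, had log2 fold changes of 0.02 and 0.04. SIGLEC10, the receptor of CD24, had log2 fold changes of -0.32 and -0.09, and neither gene was called in either experiment.

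Markers of blood lineages were measured beside these results, since bulk RNA-seq cannot tell a smaller share of cells of a type from less RNA per cell. The fetal globin HBG2, an erythroid gene, had mean levels of 311 CPM in control cells of the MLL1 experiment and 4852 CPM in those of the AF9 experiment. The megakaryocyte integrin ITGA2B was measured at 814 to 1464 CPM over all libraries. Defining markers of monocytes and granulocytes (CD14, MPO) and of T cells (CD3E) had 0 to 4 reads in every library. Other markers of these lists were present. LYZ had means of 19.8 and 89.5 CPM in control cells of the MLL1 and AF9 experiments, respectively. CD68 had 26.5 and 43.9 CPM there, and the lymphoid marker CD2 had 6.23 and 5.09 CPM. In MLL1 KD cells, 0 of 13 tested erythroid markers were called without the block and 6 of 13 were called lower with it, globin genes and ALAS2, with a list median of -0.49. With the block, 2.51% of all genes were called lower. The summed level of the 15 erythroid markers was 1428 to 1810 CPM in control and 1094 to 1402 CPM in MLL1 KD cells.

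In AF9 KD cells the summed erythroid level was 7386 to 9062 CPM, against 11044 to 11073 CPM in control cells. Most of the control sum came from HBG1, HBG2 and HBE1, with means of 3118, 4852 and 1852 CPM. The median log2 fold change of the 13 tested markers was 0.32, opposite in direction to the sum. The fetal globins HBG1 and HBG2 were both called lower, each with a log2 fold change of -0.60, while HBA1 and HBA2 were called higher, with 1.15 and 1.22. These pairs are near-identical copies, so the split of reads within each pair is uncertain. The 11 megakaryocyte markers summed to 2126 to 2234 CPM in control and 1810 to 2017 CPM in MLL1 KD cells, and to 1283 to 1402 CPM in control and 1188 to 1509 CPM in AF9 KD cells. Of the 8 tested in each experiment, 0 were called in MLL1 KD cells (PF4 higher and TUBB1 lower with the block), and RAB27B was called lower in AF9 KD cells. The 14 monocyte and granulocyte markers summed to 40.5 to 72.2 CPM in control and 23.6 to 52.9 CPM in MLL1 KD cells, with 0 of 7 called (CD68 lower with the block), and to 136 to 140.0 CPM in control and 100.4 to 121 CPM in AF9 KD cells, with ITGAM called higher. The 12 lymphoid markers summed to 32.0 to 38.2 CPM in control and 42.2 to 45.4 CPM in MLL1 KD cells, with 0 of 4 called (CD2 higher with the block), and to 13.1 to 13.4 CPM in control and 13.1 to 17.7 CPM in AF9 KD cells, with 0 of 3 called. Among all genes tested, 13.1% were called in AF9 KD cells, and 0.0694% without and 4.73% with the block in MLL1 KD cells. Single calls in these short lists are therefore no result about a lineage. The part of these markers in the changes of CD24, CD34, CD44 and KIT was not tested.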

How the data were processed

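HEL RNA-seq libraries were compared as 3 control against 3 MLL1 KD and 2 control against 2 AF9 KD. The authors deposited raw counts per gene symbol. Strand-specific reads had been filtered with fastp version 0.13.1, mapped to hg38 with HISAT2 version 2.1.0 and counted with featureCounts version 1.6.1 (submitters' processing notes). The annotation behind the symbols is not given in the sources used here. CUT&Tag and PRO-seq samples were not analysed here.

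Counts were tested with edgeR version 4.0.16 in R version 4.3.3 (TMM, quasi-likelihood test, Benjamini-Hochberg over all genes whose TPM averaged 1 or more, or whose CPM did where no length was matched). Called genes had an adjusted p value under 0.05 and changed by 1.5-fold or more. DESeq2 version 1.42.0 was an alternative. The study itself used DESeq2, with the same TPM, fold change and adjusted p value thresholds. DESeq2 on all genes here called 213 genes in MLL1 KD and 1344 in AF9 KD cells, against 10 and 1744 by edgeR. Exon lengths, GC content and transcripts came from GENCODE, to which 92.4% of symbols matched. The procedure was tested on simulated data. Other alternatives were DESeq2 size factors, total counts, no filter beyond 1 count, filterByExpr, a TPM minimum of 5, no fold threshold, the replicate number as a block, GC offsets, each library left out and canonical transcript lengths. Replicates 2 and 3 alone were added after seeing the data.

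Deviations of MLL1 KD and control libraries with the same number from their group means correlated across groups at 0.65, 0.33 and 0.35. Replicates 2 and 3 correlated as much across numbers (0.36 and 0.37), and replicate 1 did not with them (-0.51 to -0.45). The numbers thus set replicate 1 apart and do not show that replicates 2 and 3 are paired. Nothing states that replicates are separate cultures, so p values measure the spread between these libraries, which may be technical.

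The members and lists were chosen with earlier results of these data known. Named genes are the members, the targets, the genes of a list that were called (at most 8 per list), defining markers of blood lineages, and the 5 genes most like CD24. A few further genes of the lists are named for their levels. Some genes that this rule names are not reported here.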

Additional observations from a re-analysis of the deposited data

Results flagged for a closer look

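CD24 differed between the knockdowns, with a log2 fold change of 1.65 in MLL1 KD and -1.82 in AF9 KD cells. Every KD library of each experiment lay on the stated side of its controls. This difference was not tested, because CD24 was chosen for it. In this and the following differences, the knockdown cannot be told apart from the experiment.

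CD44 moved the same way as CD24, with a difference between the log2 fold changes of 1.51, all 3 MLL1 KD libraries above and both AF9 KD libraries below their controls, and an adjusted p value of 0.066 by edgeR without and 1.5e-06 with the replicate block. CD34 had a difference of 2.37, with the KD library higher in 3 of 3 replicate numbers of the MLL1 experiment and lower in both of the AF9 experiment, and it was called by edgeR with the block but not without it. KIT had a difference of 0.89 and was likewise called with the block but not without it. The MLL1 KD libraries overlapped with the controls for KIT and for CD34, and not for CD44. Groups without overlap were found for 17.7% of all genes in the MLL1 experiment and for 66% in the AF9 experiment. For the difference, 1.36% of all genes were called by edgeR without the block and 15.3% with it.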

How the results depend on the processing

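Without the block, 0 of the 9 members were called in MLL1 KD cells, and 2 (CD34 and CD44) were called with the replicate block, with GC offsets and the replicate block, and with replicates 2 and 3 alone. In AF9 KD cells, 3 members were called, and 1 (CD44) by DESeq2 on the same genes or on all genes. In the AF9 experiment the 2 replicate pairs share only a number (correlation 0.16). The block raised the calls over all genes from 1744 to 1960 and called 3 members as before. For the difference between the knockdowns, 0 members were called, against 1 by DESeq2 on the same genes or on all genes, 1 without a filter beyond 1 count, 3 with the replicate block, 2 with GC offsets and the replicate block, and 0 to 2 with 1 library left out (1 without control replicate 1 and 2 without MLL1 KD replicate 1 of the MLL1 experiment). The cause of these moves was not tested. Over all genes, edgeR called 10 genes in MLL1 KD cells without and 682 with the block, and 173 and 1947 for the difference. Shares over all genes are not given for GC offsets, the looser filter, left-out libraries or replicates 2 and 3 alone. The member counts under those settings describe the settings and are not results about the members.

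Directions turned only for members near 0. For MLL1 KD, the log2 fold change of CD36 (0.02) was -0.0047 with the block, -0.030 with GC offsets and -0.042 with both, and -0.11 to 0.21 with 1 library left out. Under the same omissions KIT ranged from -0.41 to 0.073 and CD99 from -0.052 to 0.16. For AF9 KD, CD36 ranged from -0.22 to 0.31, and its difference between the knockdowns from -0.29 to 0.25. Depth limits CD38, FLT3 and, in MLL1 control cells, CD34.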
